A study of Mus musculus with 8 samples.

Results

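HELLS occupancy was compared between mouse embryonic fibroblasts without E2f3 and wild-type ones, by chromatin immunoprecipitation with an antibody against HELLS and sequencing of the recovered DNA. The regions compared were the HELLS peaks that the authors listed in either genotype, joined where they shared 1 bp or more. This gave 5962 HELLS regions of 27092 merged peak regions in the series, which also holds antibodies against E2F3 and H3K27me3. The HELLS regions covered 4.14 Mb and had a median length of 652 bp. Of them, 3484 came from the E2f3-null list alone, 1233 from the wild-type list alone and 1245 from both lists.

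The E2f3-null cells were labelled E2f3-/- and the wild-type cells WT. Both were fibroblast cultures (MEF) from embryos at E13.5, and chromatin of both was immunoprecipitated with a HELLS antibody. Each genotype had 1 HELLS library. The labels do not say how many embryos each culture came from, at which passage it was used or how the null allele was made. Every comparison here therefore sets 1 library against 1 library and not condition against condition. No p-value is given. Bracketed ranges are 95% confidence limits from exact counting distributions, which leave out every error but that of counting. The IgG files deposited for both genotypes were identical and were used as 1 background library. Its 7223444 lines are 99.8% of the sum of both genotypes' control tags in the peak table headers, so it may pool both genotypes, and values over IgG are not over a control of the same genotype.

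HELLS, also called LSH, is an SNF2-family helicase that uses ATP to remodel nucleosomes. It is best known for its part in DNA methylation and in the silencing of repeats in mouse development. E2F3 belongs to the E2F transcription factors, which bind promoters of cell-cycle genes, and H3K27me3 is the histone mark of Polycomb repression. The comparison bears on whether HELLS sits on chromatin when E2F3 is missing. No annotation or genome of mm9, the build of the files, was used here, so regions are given by position without gene names.

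Both HELLS libraries were of nearly the same depth, with 5377465 distinct reads in the E2f3-null library and 5318920 in the wild-type library, beside 7219419 in IgG. Distinct means 1 read per position and strand. HELLS regions held 3.15% of the E2f3-null reads (3.14 to 3.17), 2.60% of the wild-type reads (2.59 to 2.62) and 1.17% of the IgG reads (1.16 to 1.18). A larger share of the E2f3-null library thus lay in these regions, and both HELLS shares were above that of IgG. The regions were chosen on the HELLS reads, more of them from the E2f3-null list, which favours both differences. In what follows libraries are scaled by their distinct reads outside all peak regions, and a ratio is the scaled E2f3-null over wild-type value unless it is said to be over IgG.

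Summed over the HELLS regions, reads were not lower in the E2f3-null library. The median region held 26 E2f3-null, 21 wild-type and 13 IgG reads. The summed ratio was 1.22 (1.21 to 1.22), and 68.6% of regions had a log2 ratio above 0. The make-up of the regions favours a higher sum, since 3484 of the 5962 came from the E2f3-null list alone. The summed ratio was 1.39 in those, 1.16 in the 1245 of both lists and 0.583 in the 1233 of the wild-type list alone. A region was called when its ratio was 2-fold or more and its interval excluded 1, which gave 310 regions higher in the E2f3-null library (5.20%) and 277 lower (4.65%). Setting the median of the regions in both lists to 0, which takes out a common log2 shift of 0.18, brought the summed ratio to 1.07 (1.06 to 1.08). It also gave 149 higher and 452 lower regions, so that lower regions made up 75.2% of calls instead of 47.2%.

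The direction of the calls followed the list a region came from. Regions of the E2f3-null list alone had medians of 28 E2f3-null and 20 wild-type reads beside 15 IgG reads, with 298 higher and 1 lower. Regions of the wild-type list alone had medians of 3 E2f3-null and 9 wild-type reads beside 3 IgG reads, with 0 higher and 276 lower. Regions in both lists had medians of 40 E2f3-null and 35 wild-type reads beside 17 IgG reads, with 12 higher and 0 lower. The regions called lower thus came, but for 1, from a class with few reads in every library. Each list was called on the reads compared here, so a region in 1 list alone leans towards that library by the way it was chosen, and these splits are descriptions.

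The higher and the lower regions differed in depth and in their standing over IgG. The 310 higher regions had medians of 24 E2f3-null and 9 wild-type reads beside 11 IgG reads, and a median length of 570 bp. The 277 lower regions had medians of 1 E2f3-null and 8 wild-type reads beside 2 IgG reads, and a median length of 334 bp. Of the lower regions 253 (91.3%) held under 20 reads in both libraries together, against 79 (25.5%) of the higher ones. The E2f3-null interval lay above IgG in 94.5% of the higher regions, and the wild-type interval did so in 76.5% of the lower regions. No E2f3-null read fell in 128 of the lower regions and no wild-type read in 16 of the higher ones.

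**Figure D1:**
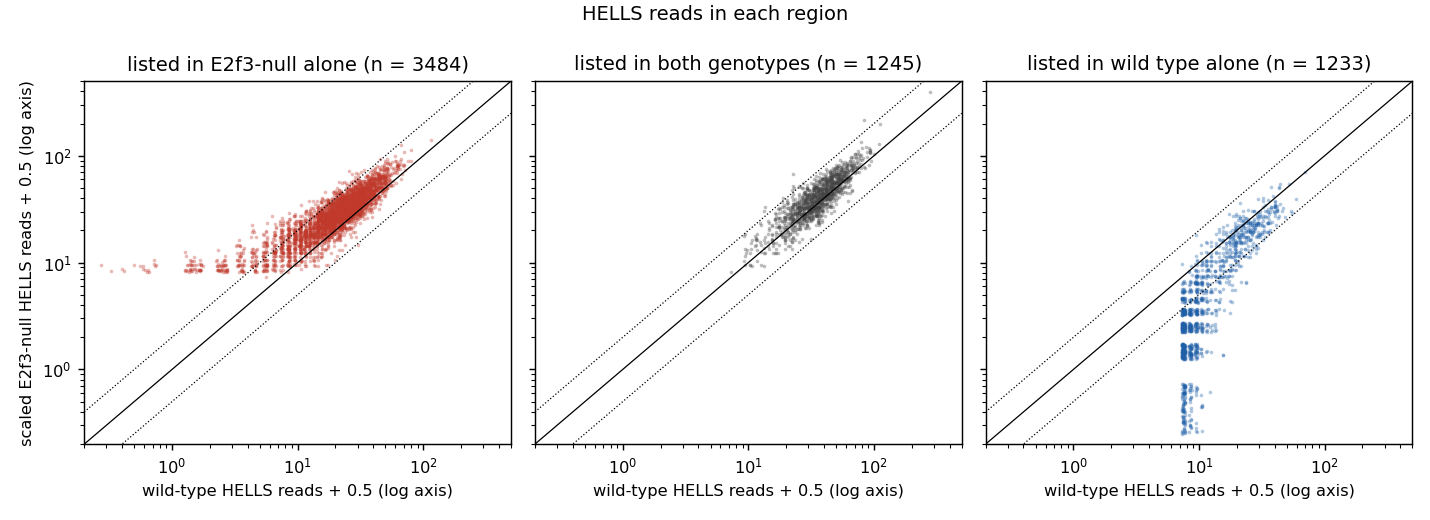
HELLS reads of each region, with scaled E2f3-null reads on the y axis and wild-type reads on the x axis, both plus 0.5 on log axes, in panels by list; each point is a region, moved at random by up to 0.25 reads so that equal counts do not overlap. The solid line marks equal values and the dotted lines a 2-fold difference; nearly all points below the lower dotted line sit in the wild-type-alone panel at low counts, and the 1245 regions in both lists lie close to the solid line.

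Most regions could not be told apart between the libraries at this depth. The interval of the ratio included 1 in 5004 of the 5962 regions, lay above 1 in 670 (11.2%) and below 1 in 288 (4.83%). The upper bound of the interval was a median of 3.45 times the lower one over all regions, 2.64 times in regions of both lists and 14.6 times in regions of the wild-type list alone. A difference of moderate size was therefore not detectable in most regions of the last class. In regions of both lists 94 intervals lay above 1 and 3 below. The lowest of these 3 ratios was at chr12:117643488-117644291, with 16 E2f3-null, 31 wild-type and 10 IgG reads and a ratio of 0.513 (0.262 to 0.966).

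The best-measured regions were higher in the E2f3-null library far more often than lower. In the 521 regions with 100 or more HELLS reads in both libraries together, 464 (89.1%) had a log2 ratio above 0, with a summed ratio of 1.27 (1.25 to 1.29). The interval lay above 1 in 119 of them and below 1 in 0, and 4 were called higher and 0 lower. Their ratios ran between 0.698 and 2.60. The lowest belonged to chr18:9213015-9214283, with 45 E2f3-null, 64 wild-type and 33 IgG reads and an interval of 0.466 to 1.04. With the median of regions in both lists set to 0, the summed ratio of the 521 regions was 1.12 (1.10 to 1.14). Of the 521 regions 310 came from both lists, 209 from the E2f3-null list alone and 2 from the wild-type list alone. They were also picked by the reads compared, so this set leans towards the E2f3-null library by its choice.

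Regions were then split into 10 classes of 596 or 597 by read number. By the mean of both HELLS libraries, the class with fewest reads, 499 of whose regions came from the wild-type list alone, had a summed ratio of 0.378 (0.356 to 0.402). It held 200 of the 277 lower regions and 56 of the 310 higher ones. The second class had 0.913 (0.876 to 0.952), and the other 8 ranged between 1.22 and 1.31, with 1.26 (1.25 to 1.28) in the class with most reads. Above the 2 lowest classes the ratio thus hardly moved with read number, while the class with most reads held 7 higher and 0 lower calls. The make-up of the classes did move. Of 596 regions the third class had 448 from the E2f3-null list alone and 41 from both lists, and the class with most reads 238 and 354. The level ratio can therefore not be read apart from list membership.

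Sorting by a library that was not compared gave a like course. By IgG reads the lowest class had 0.526 (0.499 to 0.554), the second 0.903 (0.868 to 0.939), and the remaining 8 ranged between 1.20 and 1.27. By reads of the E2F3 antibody in wild-type cells the lowest class had 0.419 (0.396 to 0.443), the second 0.961 (0.924 to 1.000), and the remaining 8 ranged between 1.23 and 1.27. Of the 597 regions in the lowest class, 459 by IgG reads and 500 by E2F3 reads came from the wild-type list alone. The regions themselves were still chosen on HELLS reads, so this course is not independent of the lists. Sorting by 1 of the compared libraries turned the lowest class with the choice. That class had 0.175 (0.162 to 0.188) when sorted by E2f3-null reads and 1.37 (1.31 to 1.43) when sorted by wild-type reads. The highest class stayed above 1 in both, at 1.34 (1.32 to 1.36) by E2f3-null reads and 1.18 (1.16 to 1.20) by wild-type reads.

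**Figure D2:**
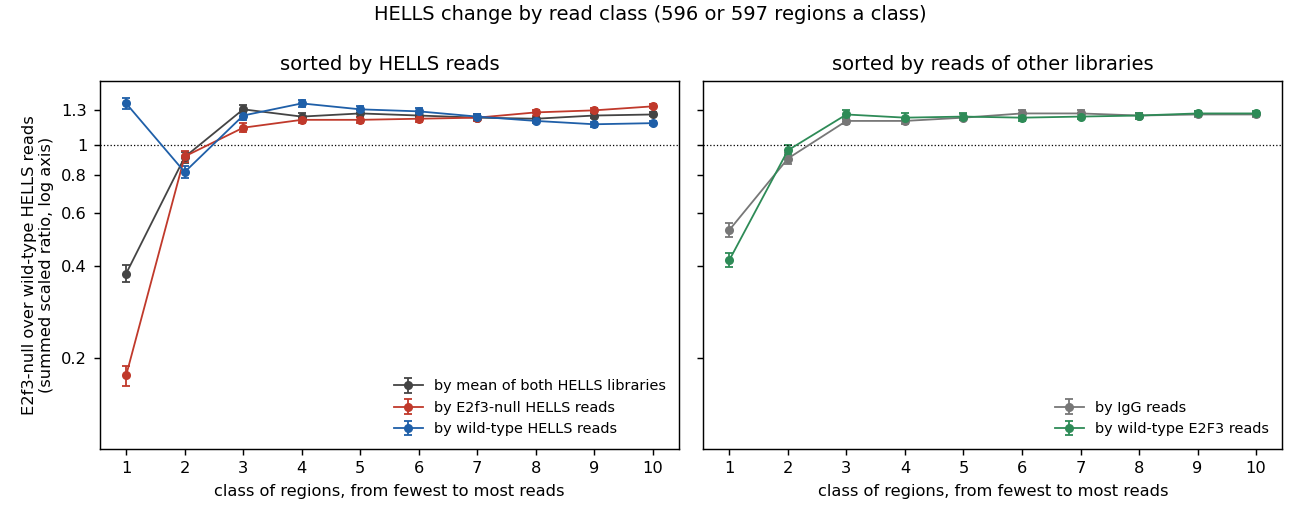
Summed scaled ratio of E2f3-null over wild-type HELLS reads (log axis, exact 95% intervals) in 10 classes of regions from fewest to most reads, sorted by HELLS reads on the left and by IgG or wild-type E2F3 reads on the right. From the third class on every sorting lies above 1, and in the lowest class the sorting by wild-type reads, at 1.37, stands apart from the others, which lie between 0.175 and 0.526.

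The authors' score, which is the negative log10 of a peak's p-value in MACS multiplied by 10, gave ratios that grew over all classes. The 442 regions with a highest score of 200 or more had a summed ratio of 1.38 (1.36 to 1.41), with 25 higher and 0 lower. The 1505 regions with a score of 50 to below 60 had 0.995 (0.976 to 1.02), with 76 higher and 166 lower. The classes between had 1.13, 1.23 and 1.27 from the lower to the higher scores. Since 2000 peaks of score 100 or more came from the E2f3-null list and 322 from the wild-type list, the upper classes were mostly chosen on E2f3-null reads.

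Set against the same IgG reads, both HELLS libraries were enriched. The peaks had been called against controls whose tags in sum nearly equal this IgG library. Values above IgG were therefore favoured by the choice of regions, most of all for a library at the regions it listed. The median log2 ratio over IgG was 1.41 in the E2f3-null library (quartiles 1.08 and 1.76) and 1.21 in the wild-type library (0.83 and 1.63). The interval lay above IgG in 4417 regions (74.1%) in the E2f3-null library and in 3564 (59.8%) in the wild-type library, and below IgG in 0 regions in either. Regions in both lists stood above IgG almost throughout, 98.4% of them in the E2f3-null and 97.2% in the wild-type library, with medians of 1.70 in the E2f3-null and 1.51 in the wild-type library. Regions of the E2f3-null list alone still had a median of 0.92 in the wild-type library, where 42.0% lay above IgG, against 1.39 and 85.3% in the E2f3-null library. Regions of the wild-type list alone had a median of 0.94 in the E2f3-null library, where 17.9% lay above IgG, against 1.96 and 72.2% in the wild-type library. The library that did not list a region was thus, by its median, above IgG there as well.

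Part of the read pattern was shared with the IgG and E2F3 antibody libraries, and less of it with H3K27me3. IgG reads per kb peaked at HELLS summits too, at 3.77 times their flank around E2f3-null summits. At the HELLS regions, reads of the E2F3 antibody from E2f3-null cells had a median log2 of 1.05 over IgG, and 44.3% of regions lay above IgG. Across the 5962 regions the Spearman correlation of read density in the E2f3-null HELLS library was 0.568 with wild-type HELLS, 0.687 with the E2F3 antibody in the same cells and 0.672 with IgG. In the wild-type HELLS library it was 0.527 with the E2F3 antibody in wild-type cells and 0.526 with IgG. With H3K27me3 in the same cells it was only 0.133 for the E2f3-null and 0.170 for the wild-type HELLS library. Regions are not independent, and all densities were taken over the same region lengths. How much of the HELLS value is enrichment common to any antibody was not tested.

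In the authors' deposited tables the E2f3-null list was the longer and the higher-scoring one. It held 4740 peaks with a median of 30 tags, a median fold enrichment of 9.63 and a median score of 88.9. The wild-type list held 2489 peaks with a median of 21 tags, a median fold enrichment of 9.57 and a median score of 62.3. Over the whole lists the median fold enrichment was thus nearly equal, and the lists differed in length, tags and score. Among peaks of score 100 or more it was 11.4 in the E2f3-null list and 10.4 in the wild-type list. In the 1224 regions with 1 peak of each library, the median log2 fold enrichment was 3.25 for E2f3-null and 2.86 for wild-type peaks. The highest false discovery rate in the E2f3-null list was 3.65%, while that of the wild-type list reached 100%. In the wild-type list the rate did not fall with rank, since the 10 peaks of highest score had a median rate of 100%, the top 250 one of 10.2% and the top 1000 one of 5.47%. Only 293 wild-type peaks (11.8%) had a rate of 5% or less, against all 4740 E2f3-null peaks.

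Keeping the wild-type peaks with that rate of 5% or less did not keep the strongest ones. Only 1 of the 500 wild-type peaks of highest score had such a rate, and the kept peaks had a median score of 67.7. The directions by list, towards which the choice of the regions leans, were the same. Among regions of the kept peaks, the 173 that both lists held had a summed ratio of 1.15 (1.12 to 1.19), with 2 higher and 0 lower. The 120 in the wild-type list alone had 0.676 (0.633 to 0.723), with 0 higher and 24 lower, at medians of 10 E2f3-null and 15 wild-type reads.

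The overlap of the lists grew with score. Of the E2f3-null peaks, 1256 of 4740 overlapped a wild-type peak. With each list split into 4 equal groups by score, 42.5% did so in the highest group (39.7 to 45.4) and 15.4% in the lowest (13.4 to 17.5). Of the wild-type peaks, 76.1% (72.5 to 79.4) of the highest group and 25.9% (22.5 to 29.5) of the lowest overlapped an E2f3-null peak. The shares of the 2 lists cannot be set against each other, since the lists differ in length and their highest groups in size and score, 1185 E2f3-null peaks from a score of 133 up and 623 wild-type peaks from 79.9 up.

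E2f3-null peaks were wider than wild-type ones. The authors' peak widths had a median of 702 bp in the E2f3-null list (quartiles 536 and 906) and 518 bp in the wild-type list (339 and 776). Peaks over 1 kb made up 17.3% of the E2f3-null list and 9.08% of the wild-type list. The widest peak was 2735 bp in the E2f3-null list, at chr5:43623738-43626472, and 2794 bp in the wild-type list, at chr13:55311376-55314169. Both of these regions were among those with many IgG reads, at 71 and 61, and their ratios were 1.23 (0.953 to 1.59) and 1.13 (0.849 to 1.52).

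Most of the difference in width lay at low scores. At a score of 50 to below 60 the median was 536 bp in the E2f3-null list and 359 bp in the wild-type list, and at 60 to below 80 it was 618 bp for E2f3-null and 548 bp for wild-type peaks. At 80 to below 100 it was 695 bp for E2f3-null and 673 bp for wild-type peaks. At 100 to below 200 it was 810 bp for E2f3-null and 746 bp for wild-type peaks. At 200 to below 400 the E2f3-null median of 970 bp was below the wild-type median of 1051 bp, which rested on 15 peaks. The lowest score class held 18.3% of the E2f3-null peaks and 42.7% of the wild-type peaks.

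**Figure D3:**
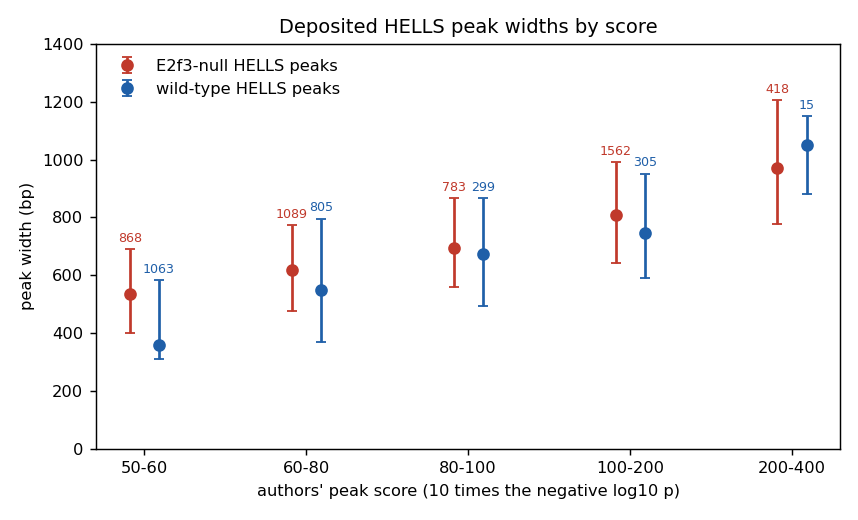
Median width of the deposited HELLS peaks (points, with quartiles as bars) by the authors' score, E2f3-null left of wild type, with the number of peaks above each bar. Width grows with score in both lists, and the lists are farthest apart in the lowest class, at 536 bp for E2f3-null and 359 bp for wild-type peaks.

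Where both libraries listed a peak at one place, widths and summits could be set side by side. In the 1224 regions with 1 peak of each library the median width was 804 bp for E2f3-null peaks and 718 bp for wild-type peaks. The median difference within a pair was 60 bp (quartiles -48 and 197), and the E2f3-null peak was the wider in 793 pairs (64.8%) and the wild-type peak in 430. The E2f3-null peak also had the higher score in 968 pairs (79.1%), with medians of 115 for E2f3-null and 71.3 for wild-type peaks. Summits lay a median of 64 bp apart (quartiles 24 and 168), within 100 bp in 763 pairs (62.3%) and over 250 bp apart in 210 (17.2%). Most paired summits thus lay close together, and a minority lay well apart.

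Read profiles were taken from 1000 bp before to 1000 bp after the deposited summits. Around E2f3-null summits the central 200 bp held 79.2 scaled reads per kb in the E2f3-null library, 52.4 in the wild-type library and 18.9 in IgG. Around wild-type summits it held 51.7 in the E2f3-null library and 60.5 in the wild-type library, with IgG at 2.89 times its flank. Over each whole list the library that had placed the summits, on its own reads, was thus the higher. This did not hold at the wild-type summits of the 1224 pairs, where the E2f3-null library held 81.4 and the wild-type library 78.4. At the wild-type summits of peaks in that list alone, the E2f3-null library held 21.6 and the wild-type library 42.4. The profile of a library at its own summits was also the narrower, which the placing of summits on its own reads favours. The width at 0.5 of the height was 147 bp for E2f3-null and 137 bp for wild-type reads at their own summits. It was 212 bp for wild-type reads at E2f3-null summits and 213 bp for E2f3-null reads at wild-type summits. In the plot of reads around summits, a steep step on either side of the centre appears in the library that placed the summits and not in the other.

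**Figure D4:**
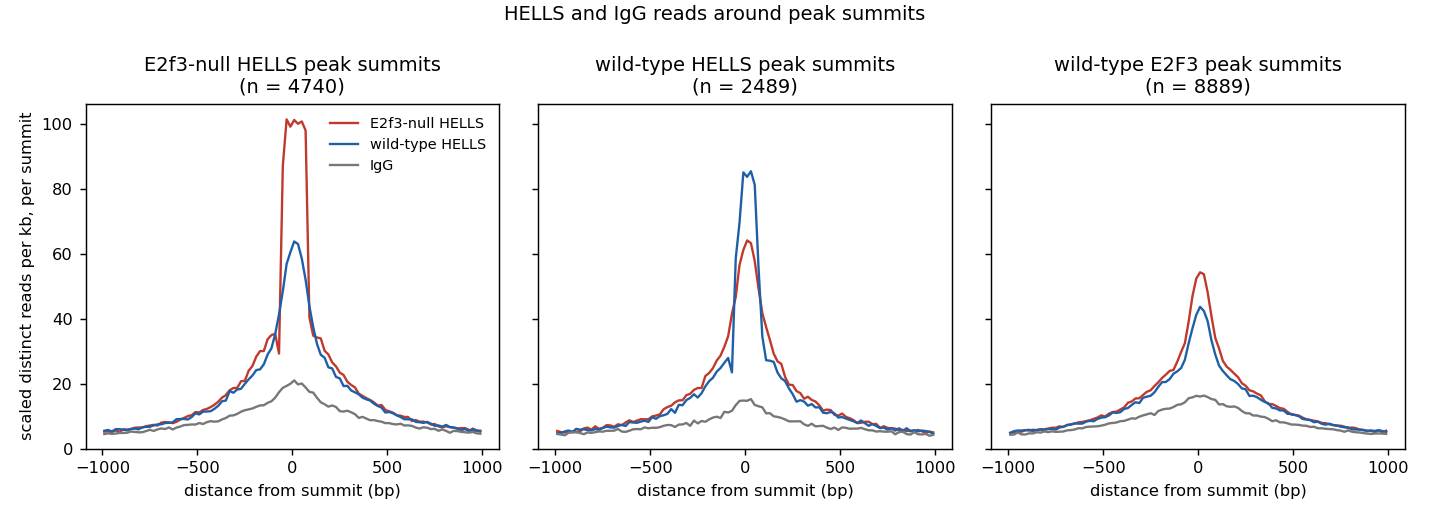
Scaled distinct reads per kb and summit (y axis) by distance from the summit in bp (x axis) for E2f3-null HELLS, wild-type HELLS and IgG, at the summits of both HELLS lists and of wild-type E2F3 peaks. Over each whole list the library that placed the summits is the highest, and at E2F3 summits the E2f3-null curve lies above the wild-type curve, with 43.2 E2f3-null and 35.1 wild-type reads per kb in the central 200 bp.

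E2F3 peaks of the wild-type E2F3 library gave positions that no HELLS library had placed. At their 8889 summits the central 200 bp held 43.2 scaled reads per kb in the E2f3-null HELLS library, 35.1 in the wild-type HELLS library and 15.4 in IgG. The centre stood 7.69 times above the flank in the E2f3-null, 6.22 times in the wild-type and 3.23 times in the IgG library. HELLS reads thus peaked at these sites in cells without E2F3 as well. The width at 0.5 of the height was 203 bp in the E2f3-null and 215 bp in the wild-type library, so the profiles were of nearly the same shape.

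The ratio at E2F3 summits declined with distance. It was 1.23 (1.22 to 1.24) within 100 bp, 1.12 (1.10 to 1.13) from 100 to 200 bp, 1.08 (1.07 to 1.09) from 200 to 400 bp and 1.01 (0.991 to 1.02) from 700 to 1000 bp. At wild-type HELLS summits it was 0.854 (0.840 to 0.868) within 100 bp but 1.18 (1.15 to 1.21) from 100 to 200 bp. At E2f3-null summits it was 1.51 (1.5 to 1.53) within 100 bp and 1.12 (1.10 to 1.13) from 100 to 200 bp. Each kind of HELLS summit was placed on the reads of its own library, which favours that library in the centre. The central values at HELLS summits are therefore descriptions. Beyond the central 100 bp the E2f3-null, wild-type and E2F3 summits thus gave like ratios, and within it they parted.

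E2F3 summits that lay outside every HELLS region, 4701 in all, had a weaker peak of HELLS reads. Their central 200 bp held 26.2 scaled reads per kb in the E2f3-null library, 23.6 in the wild-type library and 14.2 in IgG. The ratio was 1.11 (1.09 to 1.13) within 100 bp, 0.975 (0.952 to 0.998) from 100 to 200 bp and 0.941 (0.923 to 0.960) from 200 to 400 bp. It was above 1 in the centre alone there, and no larger than the common shift of regions in both lists, which is 1.13 as a ratio. Leaving out the HELLS regions, more of them listed in the E2f3-null library, favours a lower ratio at the summits that remain.

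**Figure D5:**
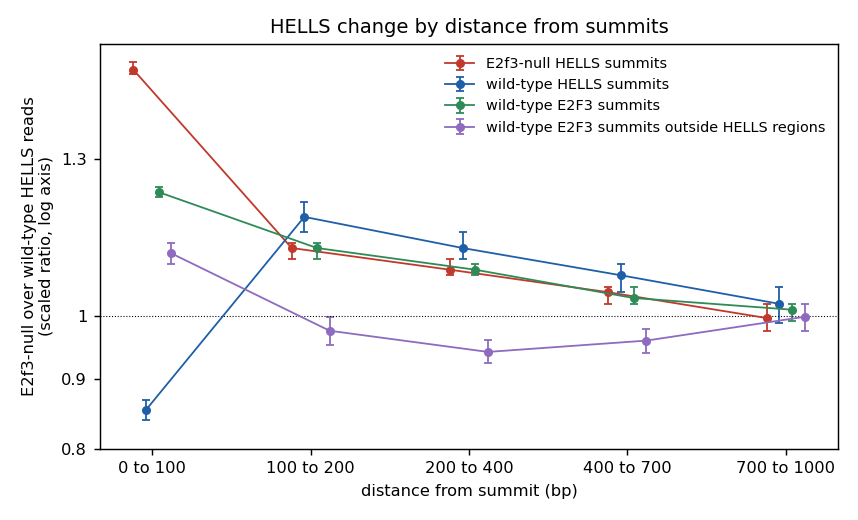
Scaled ratio of E2f3-null over wild-type HELLS reads (log axis, exact 95% intervals) by distance from 4 kinds of summit. Within 100 bp it runs from 1.51 at E2f3-null HELLS summits to 0.854 at wild-type HELLS summits, each placed on the reads of its own library. From 700 to 1000 bp all 4 lie near 1.

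At E2F3 and H3K27me3 regions that touched no HELLS region the excess was small or absent. These regions were left over by HELLS lists called on the reads compared here, with 4740 E2f3-null and 2489 wild-type peaks. The split itself thus favours a higher ratio in touching regions and a lower one in the rest. At E2F3 regions as a whole 220 of 9643 were called higher (2.28%) and 64 lower (0.664%), with a summed ratio of 1.16 (1.15 to 1.17). The 4496 that touched a HELLS region had 1.22 (1.21 to 1.23), and the 5147 that touched none had 1.03 (1.02 to 1.04), which turned to 0.906 (0.896 to 0.917) with the median of regions in both HELLS lists set to 0. The summed ratio at E2F3 regions grew with their wild-type E2F3 reads, from 1.05 (1.03 to 1.08) in the lowest of 4 groups through 1.11 and 1.15 to 1.20 (1.19 to 1.22) in the highest. Grouped by IgG reads it grew nearly alike, from 1.05 (1.02 to 1.07) through 1.12 and 1.16 to 1.19 (1.18 to 1.20). The rise was thus not particular to the E2F3 reads. At 17076 H3K27me3 regions that touched no HELLS region the summed ratio was 0.930 (0.921 to 0.939), with 60 called higher (0.351%) and 139 lower (0.814%), at medians of 3 E2f3-null, 3 wild-type and 4 IgG reads.

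The ratio also moved outside all peaks. In 1 kb bins without IgG reads it was 1.07 (1.06 to 1.07), in bins of 3 to 4 IgG reads 1.00 (1.00 to 1.01), and in bins of 10 to 14 IgG reads 0.901 (0.894 to 0.908). In the bins with more IgG reads it was 0.907 (0.889 to 0.925) at 15 to 19 and 0.956 (0.941 to 0.972) at 20 or more. The E2F3 antibody gave 1.04, 1.01, 0.912, 0.748 and 0.888 in these 5 classes. The background of the libraries was thus not equal at all IgG levels, and its part in the results was not tested.

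The HELLS regions were also read with the other antibodies. Reads of the E2F3 antibody were lower in the E2f3-null library at 2922 of the 5962 regions (49.0%) and higher at 3 (0.0503%), with medians of 16 E2f3-null and 38 wild-type reads and a summed ratio of 0.398 (0.395 to 0.401). Over all 27092 merged peak regions 24.0% were lower and 0.535% higher with this antibody. The library labelled E2f3-/- was thus the lower one with the antibody against the deleted protein. A wild-type E2F3 peak overlapped 95.3% of the regions in both HELLS lists, 73.5% of those in the E2f3-null list alone and 35.7% of those in the wild-type list alone. Of the regions called lower for HELLS 10.8% had one, and of those called higher 57.4%, both below the 70.2% over all HELLS regions and the 74.0% over regions called neither way.

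HELLS reads were higher in sum in the E2f3-null library both where the E2F3 signal was lower and where it was not. At the 2922 regions where the E2F3 antibody was lower, the HELLS ratio was 1.26 (1.25 to 1.27), with 125 higher and 13 lower. At the other 3040 it was 1.15 (1.14 to 1.16), with 185 higher and 264 lower. The regions of the second kind held fewer HELLS reads, with medians of 18 E2f3-null and 14 wild-type reads, against 33 E2f3-null and 26 wild-type reads in the first. The difference between the 2 kinds was not tested apart from read number. Both kinds are parts of the HELLS regions, 3484 of which came from the E2f3-null list alone, and this choice favours a higher sum.

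H3K27me3 reads were lower in the E2f3-null library at 2963 of the HELLS regions (49.7%) and higher at 1 (0.0168%), with a summed ratio of 0.371 (0.368 to 0.375). Only 25.3% of the HELLS regions had a wild-type H3K27me3 peak, and medians were 3 E2f3-null and 14 wild-type reads. The median log2 over IgG was -0.85 in the E2f3-null library, where 22.9% of regions lay below IgG, and 0.63 in the wild-type library. Whether the mark itself was lower at regions without such a peak was not tested. Over all 27092 merged peak regions 40.5% were lower and 1.89% higher, with a summed ratio of 0.413 (0.411 to 0.415), so lower H3K27me3 reads were found across the libraries and not at HELLS regions alone. The 1506 regions with a wild-type H3K27me3 peak had a HELLS ratio of 1.25 (1.23 to 1.27), with 89 higher and 19 lower. The 4456 without one had 1.20 (1.19 to 1.21), with 221 higher and 258 lower. In sum, HELLS reads were thus higher in the E2f3-null library on both kinds of region, though without the H3K27me3 peak more regions were called lower than higher. Of all HELLS regions 3484 came from the E2f3-null list alone, and this choice favours a higher sum. At H3K27me3 regions that touched no HELLS region the HELLS ratio was 0.930 (0.921 to 0.939), and the choice of those regions favours a lower one.

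Among single regions, the HELLS peaks of highest score in both lists stood above IgG in both genotypes, by unlike amounts. At chr9:44688692-44689941 the E2f3-null library was 16.6 times IgG (11.6 to 24.4) and the wild-type library 11.7 times (8.17 to 17.4), and both summits lay 3 bp apart. At chr17:28313800-28314777 the E2f3-null library was 12.8 times IgG (8.34 to 20.7) and the wild-type library 4.93 times (3.08 to 8.21). It was the region with the highest ratio among those with 100 or more reads, and it held 7 E2f3-null and 11 wild-type reads of H3K27me3. At chr6:145197885-145199321 there were 135 E2f3-null, 78 wild-type and 37 IgG reads, a ratio of 1.72 (1.29 to 2.30), while the E2F3 antibody had 45 E2f3-null and 258 wild-type reads. The E2f3-null HELLS library was 5.01 times IgG there (3.46 to 7.42) and the wild-type HELLS library 2.92 times (1.95 to 4.44).

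All 12 regions that both lists held and that were called were higher in the E2f3-null library, with ratios between 2.03 and 3.07. The highest was at chrX:98417549-98418348, with 68 E2f3-null, 22 wild-type and 9 IgG reads and a ratio of 3.07 (1.87 to 5.22). Scaled by the reads outside peaks on chromosome X it was 2.51 (1.53 to 4.27), below the 2.60 of the region on chromosome 17. The E2F3 antibody had 13 reads there in each genotype. At chr18:7004412-7004967 there were 50 E2f3-null, 23 wild-type and 8 IgG reads, a ratio of 2.16 (1.29 to 3.71), beside 6 E2f3-null and 9 wild-type reads of the E2F3 antibody. These 2 regions were the only ones of the 12 without a wild-type E2F3 peak. At chr15:73555009-73555520 there were 51 E2f3-null, 25 wild-type and 14 IgG reads, a ratio of 2.03 (1.23 to 3.41), while the E2F3 antibody had 12 E2f3-null and 72 wild-type reads.

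Strong peaks of 1 list alone were in most cases not empty in the other library. The highest score in the E2f3-null list alone was at chr17:69731745-69733492, with 126 E2f3-null, 66 wild-type and 43 IgG reads and a ratio of 1.90 (1.4 to 2.59). The wild-type library was 2.12 times IgG there (1.43 to 3.20). The highest score in the wild-type list alone was at chr3:119485505-119486358, with 27 E2f3-null, 32 wild-type and 10 IgG reads and a ratio of 0.838 (0.483 to 1.44). Of the 5 named regions of that class 1 was called lower, chr12:57633907-57634505, with 12 E2f3-null, 25 wild-type and 4 IgG reads and a ratio of 0.477 (0.218 to 0.985). A wild-type H3K27me3 peak overlapped it, with 24 H3K27me3 reads in the E2f3-null and 145 in the wild-type library.

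The 1 region called lower outside the wild-type list alone was chr12:66018769-66019336. It held 14 E2f3-null, 30 wild-type and 12 IgG reads, a ratio of 0.463 (0.227 to 0.901), although its peak was listed in the E2f3-null library, with a score of 51.2. Over IgG the E2f3-null library was at 1.60 (0.688 to 3.80) and the wild-type library at 3.46 (1.72 to 7.42).

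By chromosome the autosomes were alike, with median log2 ratios between 0.18 and 0.31. The 73 regions on chromosome X had a median of 0.62, with 13 higher and 0 lower and a summed ratio of 1.52 (1.41 to 1.65). Reads outside peaks on chromosome X had a ratio of 1.22 (1.21 to 1.23), against 0.972 to 1.02 on the autosomes. Scaled by its own reads outside peaks, chromosome X had 3 higher and 1 lower regions and a summed ratio of 1.25 (1.15 to 1.35), close to that of all HELLS regions.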

How the data were processed

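Members, lists and tests were chosen with earlier results of these data known. The submitters' processing notes name mm9, and the aligner is not given in the sources used here. Usual read length in the deposited files was 25 bp (98.8% of reads in each HELLS library), of 36 nucleotides sequenced. The authors ran MACS 1.4.0beta on each library, per the file headers, at a p cutoff of 1e-05 against controls of 3791438 (E2f3-null) and 3444066 (wild-type) tags. Their deposited tables give tag counts per peak, a score, a false discovery rate in percent, and the fold enrichment as a ratio. Signal height at the summits, as the authors deposited it, was not used. The deposited IgG files hold the same 7223444 lines, near the sum of both control sizes (7235504), and may be a pool.

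From the deposited reads, 1 read per position and strand was kept (1800 E2f3-null and 1851 wild-type HELLS lines were repeats) and moved 60 bp from its 5′ end. Counts were scaled by distinct reads outside all peak regions (21.5 Mb). Intervals of ratios are exact conditional binomial, those of shares Clopper-Pearson. A pseudocount of 0.5 entered every log2 ratio. Profiles used 20 bp bins, the central 200 bp against a flank of 800 to 1000 bp. Named regions were those of highest score in each list class, all called regions in both lists, the widest peaks, and the extremes of ratio or IgG reads. Python 3.11.15, numpy 2.4.6, pandas 2.3.3 and scipy 1.17.1 were used. Alternatives changed scaling, duplicates, pseudocount, read position, threshold, peak score, window, chromosomes, overlap and sorting.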

Additional observations from a re-analysis of the deposited data

How the results depend on the processing

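Of 58 alternative values, 32 stayed within 1.5 times the count or within the interval of the value reported. Setting the median of regions in both lists to 0 gave 149 higher and 452 lower regions and a median log2 ratio of 0.098. With peaks of score 100 or more there were 120 higher and 7 lower regions, a median of 0.40, median log2 values over IgG of 1.67 (E2f3-null) and 1.28 (wild-type), and widths of 842 bp (E2f3-null) and 780 bp (wild-type). A 1.5-fold threshold gave 638 higher (10.7%) and 288 lower regions (4.83%). A 500 bp window at the summit gave a median of 0.30 and values over IgG of 1.5 (E2f3-null) and 1.28 (wild-type). Adding 1 in place of 0.5, or scaling by all distinct reads, gave 1.38 (E2f3-null) and 1.18 (wild-type). Shares of the lists that overlapped were 21.8% (E2f3-null) and 41.6% (wild-type) with summits within 250 bp, and 9.10% (E2f3-null) and 56.2% (wild-type) with score 100 or more. The lowest read class was 0.175 when sorted by E2f3-null reads and turned to 1.37 when sorted by wild-type reads, and the highest was 1.34 by E2f3-null and 1.18 by wild-type reads, since the sorting itself uses a compared library. Other causes were not tested. The scaling of chromosome X by its own reads was chosen after seeing the data and gave 300 higher and 278 lower regions and a median log2 ratio of 0.27. No paired analysis was possible because each genotype had 1 library and the labels give no replicate numbers. At this depth 5004 of 5962 intervals included 1, which does not show that those regions were alike.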

Other observations

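Chromosome Y held 1552 distinct reads in the E2f3-null HELLS library, 3113 in the wild-type HELLS library and 3547 in IgG. Chromosome X held 3.49% of the E2f3-null HELLS reads, 2.87% of the wild-type HELLS reads and 3.28% of the IgG reads. Outside peaks the E2f3-null over wild-type ratio on chromosome X was 1.22 with the HELLS antibody, 1.18 with the E2F3 antibody and 1.55 with the H3K27me3 antibody. On chromosome Y it was 0.492, 0.466 and 0.508. The labels do not give the sex of the embryos.

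Reads of the 2 strands lay farther apart in the E2f3-null library than in the wild-type library at the same summits. At wild-type E2F3 summits the offset of the strands was 112 bp in the E2f3-null HELLS library, 99 bp in the wild-type HELLS library and 74 bp in IgG. The authors' fragment sizes, per the file headers, ran the same way, at 134 bp for the E2f3-null and 115 bp for the wild-type HELLS library.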
